A study of Homo sapiens with 7 samples.

Results

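The regions described are the narrow H3K27ac peaks of T-47D cells that touch chromatin marked by H3K36me3. They were chosen by position alone, as the H3K27ac peaks of at most 5000 bp on chromosomes 1 to 22 and X that share 1 bp or more with an H3K36me3 peak. Of 30889 H3K27ac peaks of that width, 3880 did so, which is 12.6%. These divide into 2029 peaks that lie fully inside 1 H3K36me3 peak and 1851 that reach past its edge. The remaining 27009 peaks of at most 5000 bp lie off H3K36me3. All 3 sets come from the same 2 peak lists, so their sizes, widths and positions are given as a description with no test.

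T-47D is an established luminal breast cancer cell line that carries the estrogen receptor. The labels name no treatment, and the cells were grown in DMEM with 10% fetal bovine serum to 70 to 80% confluence in 100 mm dishes. Chromatin immunoprecipitation with sequencing gave 1 library and 1 peak list for each of H3K27ac, H3K36me3, H3K4me2, H3K27me3 and 2 lists labelled H2A.Z and H3K9me3. The last 2 are named by their labels throughout, because the list labelled H3K9me3 overlaps active marks and the list labelled H2A.Z almost never does, each opposite to what is known of its mark. No list has a replicate, a peak height or a read depth, so intervals (95%) cover counting error with peaks taken as independent, and no statement about differences between cell cultures can be made. A position without a peak may hold signal below the authors' threshold.

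As background, H3K36me3 is laid down on gene bodies by the methyltransferase SETD2, which travels with elongating RNA polymerase II. H3K27ac is written by the acetyltransferases p300 and CBP at active promoters and enhancers. H3K4me2 is found at promoters and enhancers in both active and poised states, and usually accompanies H3K27ac. Enhancers that lie within the transcribed body of a gene, and promoters whose gene body begins beside them, are the known settings in which H3K27ac and H3K36me3 meet.

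H3K27ac peaks inside H3K36me3 seldom carried H3K4me2. Of the 2029 inside peaks, 159 overlapped an H3K4me2 peak, or 7.84% (Wilson interval 6.75 to 9.09). Of the 1851 edge peaks, 788 did so, or 42.6% (40.3 to 44.8). Off H3K36me3 it was 13908 of 27009 peaks, or 51.5% (50.9 to 52.1), and over all H3K27ac peaks of at most 5000 bp the share was 48.1%. The share of inside peaks was 34.7 percentage points below that of edge peaks (difference -34.7, Newcombe interval -37.2 to -32.2) and 43.7 points below that of peaks off H3K36me3 (difference -43.7, -44.9 to -42.3). Edge peaks stood below peaks off H3K36me3 by less, with width not taken into account (difference -8.92 points, -11.2 to -6.58).

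The ordering was seen along the genome and was not carried by a few chromosomes. The inside share was lower than the edge share on 22 of 23 chromosomes, with chromosome 18 as the exception, where only 2 inside peaks lie. It was lower than the share off H3K36me3 on all 23 chromosomes, with differences of -52.3 to -8.39 points. Edge peaks had a lower share than peaks off H3K36me3 on 19 chromosomes and a higher one on 4. On chromosome X, 0 of 24 inside peaks overlapped H3K4me2, against 25 of 38 edge peaks and 266 of 610 peaks off H3K36me3.

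Width moved with the classes and is therefore given beside the H3K4me2 shares. Inside peaks had a median width of 501 bp (quartiles 501 and 501 bp), edge peaks 763 bp (501 to 2095) and peaks off H3K36me3 663 bp (501 to 1274). The width of 501 bp is the commonest of the list, and 75.3% of inside peaks had it, against 38.2% of edge peaks and 40.5% of peaks off H3K36me3. Only 8 inside peaks were wider than 2 kb, against 480 edge peaks. The rule in part fixes this contrast in width. An H3K27ac peak can lie inside only an H3K36me3 peak at least as wide as itself, and the median H3K36me3 peak was 723 bp wide. A wider H3K27ac peak that touches a short H3K36me3 peak counts as an edge peak.

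Within every width class the inside peaks still had the lowest H3K4me2 share. At 501 bp or less it was 5.75% of inside peaks (Wilson interval 4.69 to 7.03), 15.7% of edge peaks (13.2 to 18.5) and 34.3% of peaks off H3K36me3 (33.5 to 35.2). From 501 bp to 1 kb it was 12.4% inside (9.54 to 15.8), 34.1% at edges (29.4 to 39.0) and 53.7% off H3K36me3 (52.5 to 54.8). From 1 to 2 kb it was 22.9% of 70 inside peaks (14.6 to 34.0), 57.3% of edge peaks (51.6 to 62.9) and 67.3% off H3K36me3 (66.0 to 68.5). The classes of edge peaks and peaks off H3K36me3 came together only above 2 kb, at 79.8% (76.0 to 83.1) and 77.1% (75.7 to 78.5). Weighted to the widths of the inside peaks, the shares were 7.84% inside, 21.2% at edges and 39.7% off H3K36me3. The gap between inside and edge peaks then came to 13.3 points (difference -13.3), so much of the unweighted gap of 34.7 points went with width. The gap between edge peaks and peaks off H3K36me3 instead grew with this weighting, from a difference of -8.92 to one of -18.5 points.

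**Figure D1:**
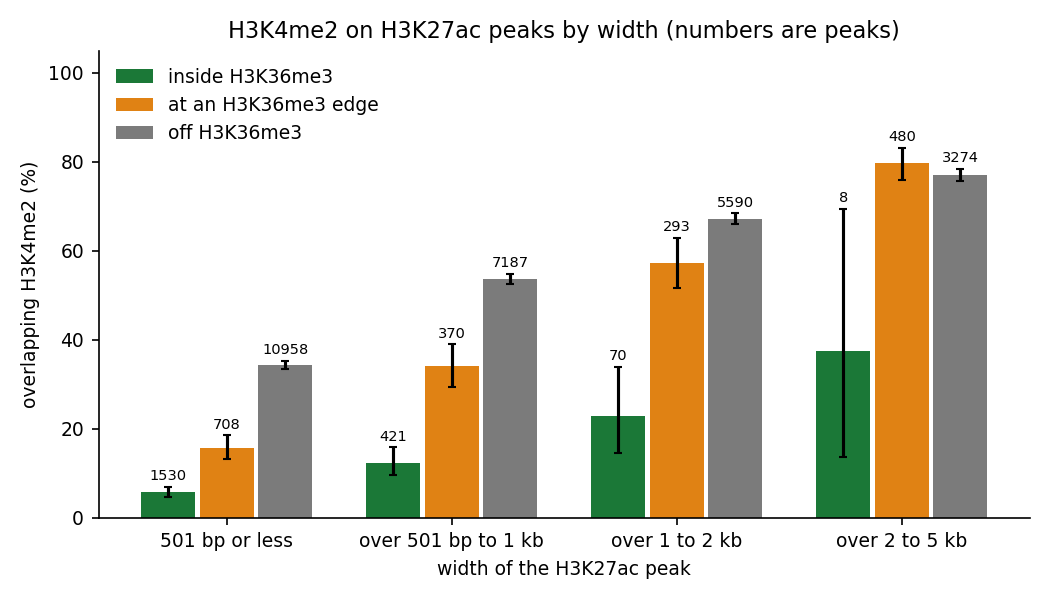
Share of H3K27ac peaks that overlap an H3K4me2 peak (y axis, percent) by width of the H3K27ac peak (x axis), for peaks inside H3K36me3, at its edge and off it; error bars are Wilson 95% intervals and the numbers are peaks. Inside peaks are lowest in every width class, from 5.75% at 501 bp or less to 37.5% of 8 peaks over 2 kb.

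The H3K4me2 share also differed with depth inside H3K36me3. Distance was taken from the nearer end of the H3K27ac peak to the nearer edge of the H3K36me3 peak that holds it. Within 0.5 kb of the edge 12.9% of 604 inside peaks overlapped H3K4me2 (Wilson interval 10.5 to 15.8). From 0.5 to 1 kb it was 7.97% of 276 peaks (5.32 to 11.8), from 1 to 2 kb 5.45% of 385 (3.59 to 8.19) and from 2 to 5 kb 6.29% of 461 (4.42 to 8.89). From 5 to 10 kb the share was 1.92% of 208 (0.75 to 4.84). Deeper than 10 kb it was 5.26% of 95 peaks (2.27 to 11.7), and past 0.5 kb the intervals overlap except between the zones at 0.5 to 1 and 5 to 10 kb.

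Among peaks of exactly 501 bp, where width cannot differ, the share rose from inside across the edge to outside, though not in even steps inside. It was 1.28% of 156 inside peaks at 5 to 10 kb depth (Wilson interval 0.352 to 4.55) and 10.5% of 457 inside peaks within 0.5 kb of the edge (8.01 to 13.7). The other inside zones were at 2.74% over 10 kb (0.755 to 9.45), 4.07% at 2 to 5 kb (2.44 to 6.71) and 3.51% at 1 to 2 kb (1.92 to 6.34). At 0.5 to 1 kb the share was 5.63% (3.25 to 9.59). At the edge it was 15.7% of 708 peaks (13.2 to 18.5). Outside, it was 24.6% of 900 peaks within 1 kb of H3K36me3 (21.9 to 27.5) and 41.2% of 3438 peaks more than 50 kb away (39.6 to 42.9). With all widths up to 5 kb taken, no such slope was seen outside, where the 6 zones ranged from 48.8 to 53.8%.

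**Figure D2:**
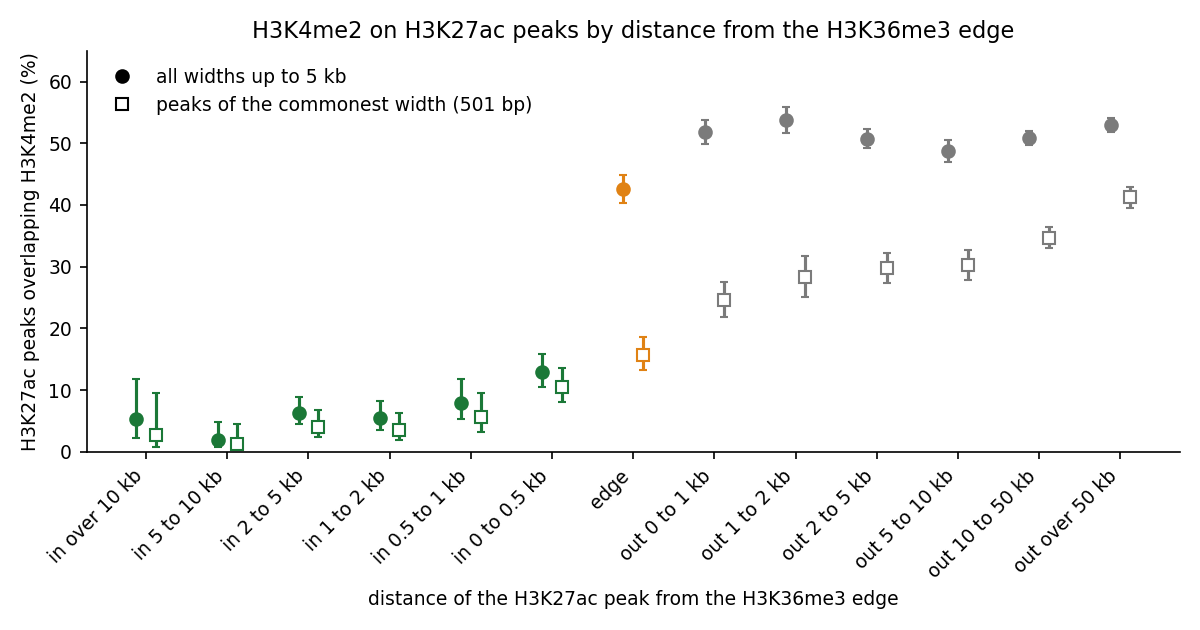
Share of H3K27ac peaks that overlap H3K4me2 (y axis, percent, with Wilson 95% intervals) by distance from the H3K36me3 edge (x axis), from deep inside on the left to far outside on the right; filled circles are all peaks up to 5 kb wide and open squares are peaks of 501 bp. Inside zones lie between 1.28 and 12.9%, and the zones outside between 24.6 and 53.8%.

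Long H3K36me3 peaks, which have both an outer rim and a deep interior, gave a similar order. In H3K36me3 peaks of 10 kb or more, H3K4me2 was found on 11 of 112 inside peaks less than 1 kb from the edge (9.82%, Wilson interval 5.57 to 16.7), on 18 of 390 at 1 to 5 kb (4.62%, 2.94 to 7.18) and on 9 of 303 at 5 kb or more (2.97%, 1.57 to 5.55). Adjacent zones have overlapping intervals, while those of the first and the last zone barely miss each other (5.57 against 5.55%). In H3K36me3 peaks of 20 kb or more the order was the same, but all 3 intervals overlap. The counts there were 3 of 23 (13.0%, 4.54 to 32.1), 7 of 119 (5.88%, 2.88 to 11.6) and 7 of 218 (3.21%, 1.56 to 6.48).

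The low H3K4me2 of inside peaks stood above that of the chromatin around them. H3K4me2 covered 5.45% of the 1.17 Mb of inside peaks and 1.43% of the other 13.8 Mb of the H3K36me3 peaks that hold them. It covered 0.518% of the 34.9 Mb in H3K36me3 peaks of 5 kb or more that hold no inside peak. Seen from the H3K4me2 list, acetylation was common: of 658 H3K4me2 peaks of at most 5000 bp fully inside H3K36me3, 31.0% overlapped H3K27ac (Wilson interval 27.6 to 34.6). The share was 44.6% of 1951 H3K4me2 peaks at an edge (42.4 to 46.8) and 24.9% of 61803 off H3K36me3 (24.5 to 25.2).

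Where H3K4me2 did occur inside, its peak was short. The overlapping H3K4me2 peak had a median width of 501 bp on inside peaks (interval of the median 501 to 632 bp), 820 bp on edge peaks (783 to 853) and 859 bp off H3K36me3 (846 to 873). The midpoints of the 2 marks were a median of 222 bp apart on inside peaks, 449 bp on edge peaks and 328 bp off H3K36me3, where the H3K27ac peaks concerned had median widths of 501, 1912 and 893 bp. Inside peaks with no H3K4me2 were a median of 5868.5 bp from the nearest H3K4me2 peak (5453 to 6268), against 3544 bp for such edge peaks (3094 to 3843) and 2767 bp for such peaks off H3K36me3 (2668 to 2857). Only 9.68% of them had H3K4me2 within 1 kb, against 20.9% of such edge peaks and 27.1% of those off H3K36me3.

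Inside peaks were found at all depths of H3K36me3, near its rim and deep within it. Their median distance to the edge was 1281 bp (interval of the median 1182 to 1376), with quartiles at 375 and 3140 bp. Within 1 kb of the edge lay 880 of them (43.4%), and 303 (14.9%) lay 5 kb or more inside. The H3K36me3 peaks that hold them had a median width of 7573 bp, counted per inside peak, and the median inside peak lay at 0.441 of the greatest depth its H3K36me3 peak allowed. The 159 with H3K4me2 were a median of 527 bp from the edge (311 to 828), in H3K36me3 peaks of median width 5560 bp. The 1870 without H3K4me2 were 1336 bp from the edge (1255 to 1436), in H3K36me3 peaks of median width 7812.5 bp.

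Counted per Mb at each depth over H3K36me3 peaks of all lengths, peaks without H3K4me2 were nearly level and those with H3K4me2 were not. Deep zones exist only in long H3K36me3 peaks, whose densities are given apart below. For this count all 2834 members with their midpoint in H3K36me3 were used, 805 of them edge peaks. Members without H3K4me2 numbered 23.1 per Mb within 0.5 kb of the edge (exact Poisson interval 21.6 to 24.6), 26.3 at 1 to 2 kb (23.9 to 29.0), 26.7 at 5 to 10 kb (23.3 to 30.5) and 25.3 at 10 to 20 kb (20.2 to 31.3). Those with H3K4me2 numbered 6.32 per Mb within 0.5 kb (5.55 to 7.16), 3.10 at 0.5 to 1 kb (2.27 to 4.13), 1.86 at 1 to 2 kb (1.26 to 2.66) and 0.726 at 5 to 10 kb (0.266 to 1.58).

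Just outside the edge, within 0.5 kb, the density was 12.2 per Mb without H3K4me2 (Poisson interval 11.3 to 13.3) and 6.38 with it (5.69 to 7.13), beside 6.32 with it just inside. From 0.5 kb outward the pair of densities ran close together. At 2 to 5 kb outside there were 21.2 peaks without H3K4me2 per Mb (20.3 to 22.1) and 24.96 with it (23.99 to 25.96). From 10 to 50 kb outside these were 9.20 (8.91 to 9.50) and 9.63 (9.33 to 9.93), and beyond 50 kb 1.75 (1.70 to 1.81) and 1.97 (1.91 to 2.03). Inside, the zones down to 20 kb held 22.7 to 26.7 H3K27ac peaks without H3K4me2 per Mb, and no zone outside held more than 21.2. In H3K36me3 peaks of 5 kb or more the density without H3K4me2 was 31.2 per Mb within 0.5 kb of the edge (26.2 to 36.8) and 26.98 at 2 to 5 kb (24.6 to 29.5). In those of 20 kb or more it was 33.2 within 0.5 kb (17.7 to 56.9) and 42.2 at 1 to 2 kb (29.0 to 59.3). From there it fell to 35.4 at 2 to 5 kb (28.2 to 43.9), 30.9 at 5 to 10 kb (25.7 to 37.0) and 25.3 at 10 to 20 kb (20.2 to 31.3). Within long H3K36me3 peaks these values were thus not level, though their intervals overlap.

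**Figure D3:**
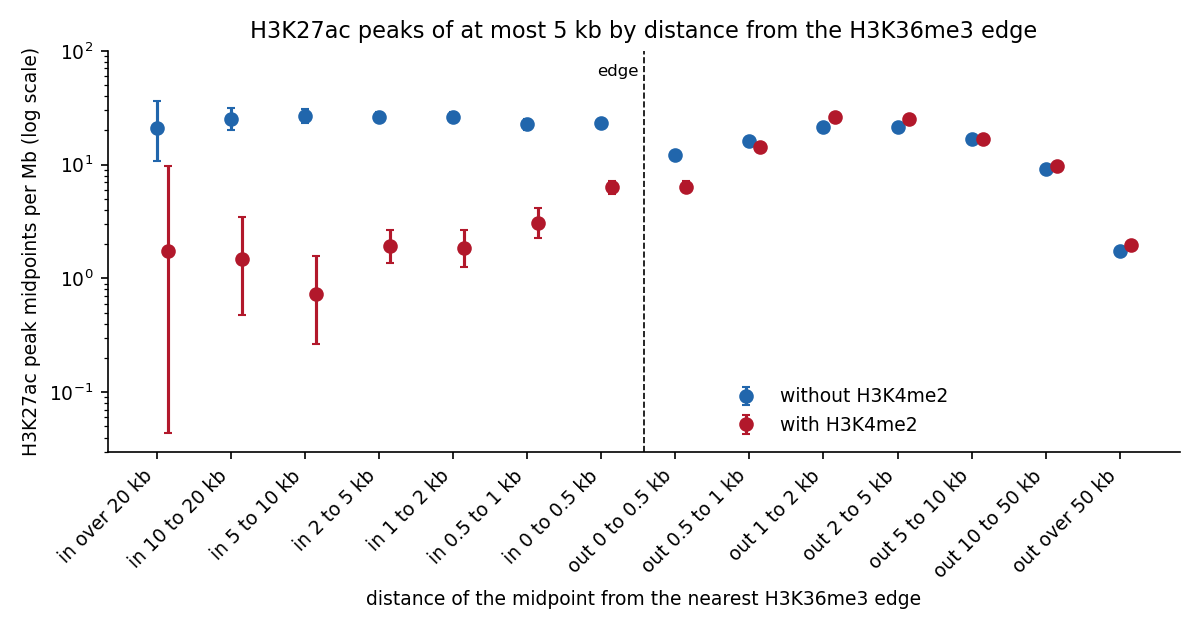
Midpoints of H3K27ac peaks of at most 5 kb per Mb of sequence (y axis, log scale, with exact Poisson 95% intervals) by distance from the H3K36me3 edge (x axis), inside on the left of the dashed line and outside on the right, for peaks without and with H3K4me2. Over H3K36me3 peaks of all lengths, peaks without H3K4me2 stay between 20.8 and 26.7 per Mb inside. Those with H3K4me2 are at 6.32 per Mb or less inside and at 6.38 per Mb within 0.5 kb outside. From 1 to 2 kb outside they are at 26.2 per Mb.

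Most H3K36me3 peaks held no inside peak. Of 52558 H3K36me3 peaks, 1560 (2.97%) held 1 or more. The share went with length, which the rule in part fixes. An H3K36me3 peak must be at least as wide as the H3K27ac peak it holds. Of H3K36me3 peaks, 38.4% were 501 bp wide, which is also the commonest width of H3K27ac peaks. How far the shares and densities by length go beyond this was not tested. The share was 0.265% of H3K36me3 peaks of at most 1 kb and 5.50% of those of 2 to 5 kb. It was 23.4% of those of 10 to 20 kb and 33 of the 55 over 40 kb. Per Mb of H3K36me3 the inside peaks were fewest in the shortest class, at 4.46 in H3K36me3 peaks of at most 1 kb (Poisson interval 3.57 to 5.51) and 14.4 at 1 to 2 kb (12.3 to 16.7). They numbered 19.2 per Mb at 2 to 5 kb (17.4 to 21.1), 27.1 at 5 to 10 kb (24.9 to 29.5), 31.2 at 20 to 40 kb (27.6 to 35.0) and 27.4 over 40 kb (21.6 to 34.3). The H3K4me2 share of inside peaks was 17.4% in H3K36me3 peaks of at most 1 kb (Wilson interval 10.9 to 26.8) and 14.7% at 1 to 2 kb (10.2 to 20.8). It was 7.89% at 2 to 5 kb (5.70 to 10.8), 8.75% at 5 to 10 kb (6.65 to 11.4) and 4.72% at 10 to 20 kb (3.11 to 7.11). In longer ones it was 4.23% at 20 to 40 kb (2.43 to 7.24) and 6.58% over 40 kb (2.84 to 14.5), so it did not fall at every step.

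Several H3K27ac peaks often shared 1 H3K36me3 peak. Inside peaks were alone in 1245 H3K36me3 peaks, and 315 held 2 or more, which together account for 784 of the 2029. Consecutive inside peaks of the same H3K36me3 peak, 469 pairs, were a median of 2426 bp apart (interval of the median 2065 to 2863; quartiles 1095 and 5086). Of these pairs 410 had H3K4me2 on neither peak, 55 on 1 and 4 on both. Among the 315 H3K36me3 peaks with several inside peaks, 266 had none with H3K4me2, 45 had some and 4 had H3K4me2 on all.

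The H3K36me3 peaks with the most inside peaks are given as single regions (hg19 coordinates, here and below), the last being the longest of 8 tied at 5 inside peaks. On chromosome 15 (63615209 to 63641224, 26016 bp) there were 8 inside peaks, the highest number found, of 501 to 1799 bp and with gaps of 617 to 3419 bp. The widest of these 8, at 63631538 to 63633336, lay 7888 bp from the edge. On chromosome 17 (39906363 to 39927954, 21592 bp) there were 6 inside peaks with gaps of 877 to 6995 bp, the deepest of them 7184 bp from the edge. Also on chromosome 17 (40022473 to 40069491, 47019 bp) lay 5, each of 501 bp, with gaps of 3005 to 15198 bp. None of the 19 inside peaks in these 3 regions overlapped H3K4me2, and over all 8 tied H3K36me3 peaks 1 of 40 inside peaks did.

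Counted against H3K27ac peaks of every width, inside and edge peaks had near neighbours. The gap to the nearest other H3K27ac peak had a median of 3000 bp for inside peaks (interval of the median 2800 to 3232), 2326 bp for edge peaks (2165 to 2540) and 5057 bp for peaks off H3K36me3 (4879 to 5236). A neighbour within 5 kb was found for 64.96% of inside peaks (Wilson interval 62.9 to 67.0), 68.8% of edge peaks (66.7 to 70.9) and 49.8% of peaks off H3K36me3 (49.2 to 50.4), against 51.9% of all H3K27ac peaks of at most 5000 bp. Isolation beyond 50 kb was seen for 1.53% of inside peaks, 2.0% of edge peaks and 15.4% of peaks off H3K36me3. Peaks off H3K36me3 but within 10 kb of it, a closer comparison, had a median gap of 4043 bp (3837 to 4247), and 10.3% of them were isolated beyond 50 kb. The contrast was smaller among peaks of 501 bp or less. Their median gaps were 3259.5 bp inside (3005 to 3621), 2538.5 bp at edges (2254 to 2789) and 4211.5 bp off H3K36me3 (4008 to 4397). A neighbour within 5 kb was found for 61.6, 69.4 and 53.4% of these.

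H3K4me2 went with shorter gaps inside H3K36me3 and with longer gaps off it. Inside peaks with H3K4me2 had a median gap of 2044 bp (1552 to 2834) and those without 3081 bp (2900 to 3315). Off H3K36me3 the peaks with H3K4me2 had a median gap of 6770 bp (6420 to 7150) and those without 3934 bp (3766 to 4154). At edges the medians were 2372.5 bp with H3K4me2 (2110 to 2750) and 2293 bp without (2090 to 2539), so these overlapped. Gaps also differed with width. Off H3K36me3 the median gap was 4211.5 bp at 501 bp or less, 8414 bp at 1 to 2 kb and 4724 bp at 2 to 5 kb. Inside it was 3259.5 bp at 501 bp or less and 1462.5 bp at 1 to 2 kb. Off H3K36me3, peaks with H3K4me2 had a median width of 893 bp and those without 501 bp. Whether H3K4me2 goes with the gap at equal width was not tested. The nearest neighbour of an inside peak was another inside peak in 36.9% of cases, an edge peak in 18.3% and a peak off H3K36me3 in 44.8%.

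**Figure D4:**
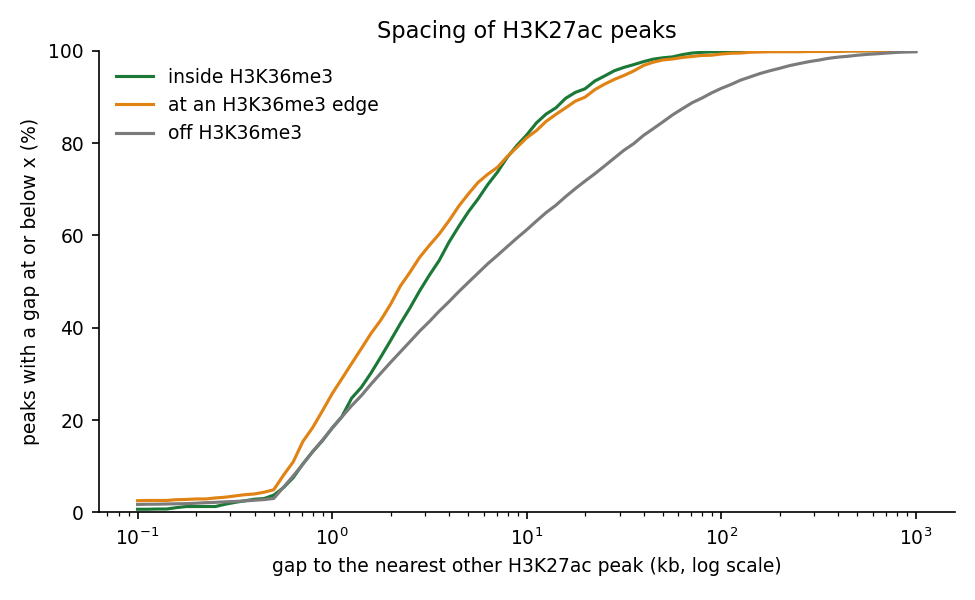
Cumulative share of H3K27ac peaks (y axis, percent) by gap to the nearest other H3K27ac peak (x axis, kb, log scale), for peaks inside H3K36me3, at its edge and off it. At 5 kb the inside and edge curves stand at 64.96 and 68.8%, and the curve off H3K36me3 at 49.8%, which then climbs more slowly.

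Edge peaks were of 3 kinds. Most, 1567, crossed a single boundary of 1 H3K36me3 peak, 216 enclosed a whole H3K36me3 peak and 68 touched several. H3K4me2 lay on 39.3% of those that crossed (Wilson interval 36.9 to 41.8), 58.3% of those that enclosed (51.7 to 64.7) and 67.6% of those that touched several (55.8 to 77.6). Their median widths were 640, 2162.5 and 2814 bp, in the same order as the shares.

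In the 1567 crossing peaks the part inside H3K36me3 and the part outside could be compared within each peak. The inner part was a median of 41.5% of the peak (quartiles 16.7 and 75.5%). H3K4me2 covered 23.1% of the inner bp and 31.5% of the outer bp, a difference of -8.39 points (Newcombe interval with 1567 peaks as n, -11.5 to -5.28). This interval takes the inner and outer parts as independent, though they belong to the same peaks, and the shares are pooled over bp. It is therefore only a rough guide to counting error. The difference was negative on 18 of 23 chromosomes. Its interval took in 0 with H3K36me3 peaks of 5 kb or more only (-3.18, -10.2 to 3.86). The same held with H3K27ac peaks wider than the median of the list (-4.03, -8.72 to 0.676) and with peaks of 501 bp alone (-1.72, -5.03 to 1.57). Peak by peak the balance was closer: 299 had denser H3K4me2 on the outer part, 257 on the inner part, 60 were covered equally and 951 had none. In the 466 peaks with 250 bp or more on each side of the boundary, coverage was 31.4% inner and 32.6% outer, a difference of -1.12 points. At H3K36me3 peaks of 5 kb or more (312 crossing peaks) it was 29.5% inner and 32.8% outer.

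Aligned on these 312 crossed boundaries, both marks ended soon after the H3K36me3 edge. At 50 bp inside, 93.9% of boundaries were covered by H3K27ac and 31.4% by H3K4me2. At 1050 bp inside these were 11.9 and 8.65%, and at 2050 bp inside 8.65 and 3.85%. On the outer side they stood at 51.9 and 18.3% at 1050 bp and at 38.1 and 24.4% at 2050 bp. At these 312 boundaries H3K4me2 thus had a second rise about 2 kb outside, which the H3K27ac curve did not show. Over all 1567 crossed boundaries the rise was slight, with H3K4me2 at 15.4% at 1050 bp and 16.6% at 2050 bp outside.

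**Figure D5:**
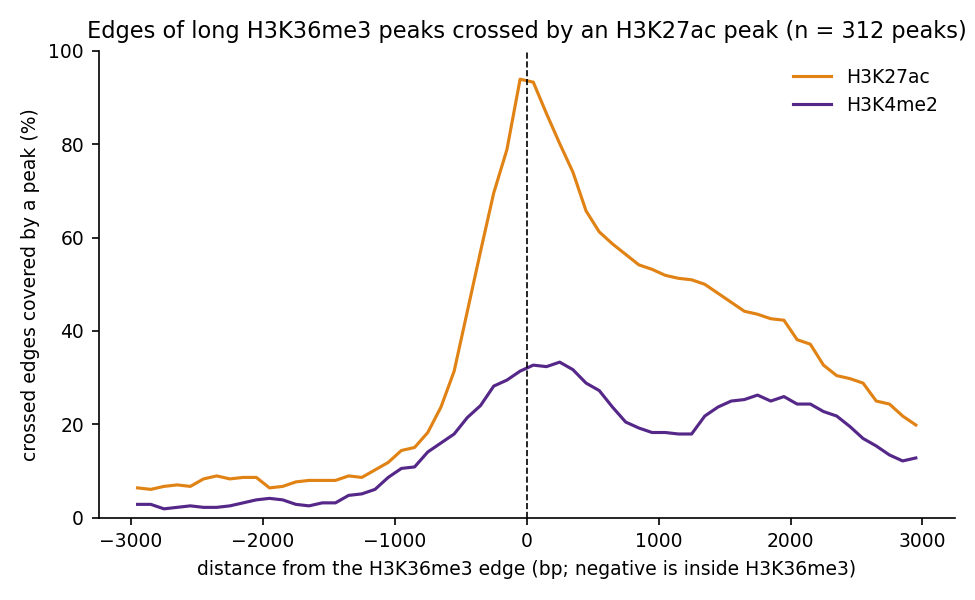
Share of 312 boundaries of H3K36me3 peaks of 5 kb or more, each crossed by an H3K27ac peak of at most 5 kb, that were covered by H3K27ac or H3K4me2 peaks (y axis, percent) by distance from the boundary (x axis, bp, negative inside H3K36me3). H3K27ac is at 93.9% next to the boundary by the way these were chosen, and H3K4me2 is at 31.4% there and at 3.85% 2050 bp inside.

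Single regions by depth showed what the most buried peaks look like. The deepest inside peak with H3K4me2 lay on chromosome 1 (224595581 to 224596639), 22672 bp from the edge of a 48116 bp H3K36me3 peak, with 775 of its 1059 bp under H3K4me2. The next were on chromosome 16 (70595019 to 70595519, 14713 bp deep, 103 bp of H3K4me2) and chromosome 15 (93478884 to 93479511, 13690 bp deep, 407 bp of H3K4me2). Those without H3K4me2 went deeper: chromosome 11 (47838065 to 47838565, 30266 bp from the edge of a 74766 bp H3K36me3 peak), chromosome 17 (37648908 to 37649408, 28219 bp from an edge) and, at 25473 bp, chromosome 15 (52521526 to 52523088). The inside peak with most H3K4me2 was on chromosome 17 (56074662 to 56077164), with 1422 bp, followed by a peak with 1160 bp on chromosome 20 (47903206 to 47904501) and a peak with 1098 bp on chromosome 3 (184062908 to 184064475). These last 3 lay 519, 527 and 34 bp from an edge.

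Among edge peaks the longest stretches shared with H3K36me3 measured 3890 bp in a peak on chromosome 3 (133292851 to 133297676), then 3163 bp in a second peak, on chromosome 11 (72944147 to 72947657), and 2508 bp in another, on chromosome 22 (31664785 to 31668912). Of these 3 only the peak on chromosome 22 overlapped H3K4me2, over 717 bp. At the limits of the rule, the widest members were edge peaks of 4988, 4981 and 4971 bp, and the narrowest H3K27ac peaks on H3K36me3 left out were edge peaks of 5022, 5024 and 5025 bp. The smallest overlaps of members were 1, 2 and 2 bp, and the nearest peaks left out abut H3K36me3 with a gap of 0 bp.

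Other lists were rare on inside peaks. H3K27me3, the Polycomb mark, overlapped 0 of 2029 inside peaks, which allows a share of up to 0.148%, 0 of 1851 edge peaks (up to 0.162%) and 11 of 27009 peaks off H3K36me3, against 0.0356% over all H3K27ac peaks of at most 5000 bp. The list labelled H2A.Z likewise met 0 inside and 0 edge peaks and 23 peaks off H3K36me3 (0.0745% of all), so with such a background these counts of 0 say little. The list labelled H3K9me3 overlapped 19.1% of all H3K27ac peaks of at most 5000 bp but 1 inside peak (0.0493%, Wilson interval 0.0087 to 0.279), 142 edge peaks (7.67%, 6.54 to 8.97) and 5771 peaks off H3K36me3 (21.4%, 20.9 to 21.9). At 501 bp or less it met 1 of 1530 inside peaks, 1 of 708 edge peaks and 925 of 10958 peaks off H3K36me3. Of 120 crossing edge peaks with this list, 116 had it on the outer part alone, 1 on the inner part alone and 3 on both.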

How the data were processed

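Peak lists from 6 ChIP-seq libraries of T-47D cells (1 per mark) were used as deposited; the input library was not analysed here. Each list gives chromosome, start, end and name. The tools named, per the submitters' processing notes, are Bowtie2 2.1.0 with HOMER 4.2, and the builds hg19 and GRCh37; for roles, calling settings and depth the sources used here state nothing. Coordinates are 1-based hg19. A gene annotation and genome sequence of hg19 were not used here, so regions carry no gene names or sequences.

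Overlap meant 1 shared bp or more. Width was end minus start in the deposited file. A gap is the bp between peaks, 0 if they overlap. Densities were taken after merging overlapping H3K36me3 peaks. Intervals (95%) are Wilson for shares, Newcombe for their differences, exact Poisson for densities and order statistics for medians. The interval of the inner minus outer coverage ignores that both parts belong to the same peaks. No test was made, since each mark has 1 library. Members, comparisons and alternatives were chosen with earlier results of these data known. Named regions are the deepest inside peaks with and without H3K4me2, the H3K36me3 peaks with most inside peaks, the edge peaks with the longest overlap, the inside peaks with most H3K4me2 and those nearest each limit of the rule, 3 of each. Classes, distances, overlaps, coverage and spacing were tested on simulated data (all 2237 planted peaks recovered); the confidence intervals were not. Python 3.11.15, numpy 2.4.6, pandas 2.3.3, scipy 1.17.1 and matplotlib 3.10.9 were used.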

Additional observations from a re-analysis of the deposited data

Results flagged for a closer look

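H3K27ac peaks of at most 5000 bp on chromosome Y, unplaced contigs and alternate haplotypes, which no comparison used, overlapped H3K36me3 in 62 of 152 cases. This is 40.79% (Wilson interval 33.3 to 48.7), and on chromosomes 1 to 22 and X the share was 12.6%. Of the 62 peaks, 36 overlapped H3K4me2, 20 H3K27me3 and 22 the list labelled H3K9me3. A peak labelled H2A.Z was met by 36 of them. Members on chromosomes 1 to 22 and X met H3K27me3 and the list labelled H2A.Z in 0 cases. The shares of these lists over all 152 peaks are not given here. Whether the overlaps go with H3K36me3 or with these contigs as a whole therefore cannot be told.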

How the results depend on the processing

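The 3 differences kept their sign under every alternative computed for them (9 in all), the last of which, peaks of 501 bp only, was chosen after seeing the data. The alternatives that change the H3K4me2 overlap were not computed for the inner minus outer coverage. For that coverage the sign alone was kept in 3 alternatives, where the interval took in 0. These were -10.2 to 3.86 points with H3K36me3 peaks of 5 kb or more, -8.72 to 0.676 with wider peaks and -5.03 to 1.57 with peaks of 501 bp. Of 78 recomputed values, 37 stayed within the interval of the value reported (the number of members within 1.5 times) and 41 moved; the cause of each move was not tested beyond the change of peaks itself. The values that moved are as follows. Requiring an overlap with H3K36me3 of at least 50% of the shorter peak put the inside share of members at 65.6% (reported 52.3%), the H3K4me2 share of edge peaks at 36.5%, its inside minus edge difference at -28.7 points and the edge median gap at 1982 bp. Merging H3K36me3 within 1 kb gave an inside share of 56.9% and a median distance to the edge of 1463 bp. With H3K36me3 peaks of 5 kb or more only, there were 1688 members, 79.9% inside, with H3K4me2 on 6.45% of inside and 56.2% of edge peaks, differences of -49.7 points against edge peaks, a median distance to the edge of 2362.5 bp, median gaps of 3258.5 bp inside and 2729.5 bp at edges and an inner minus outer H3K4me2 coverage of -3.18 points. Peaks of at most 2 kb gave 59.6% inside, H3K4me2 on 29.5% of edge peaks and differences of -21.8 points against edge peaks and -40.2 against peaks off H3K36me3. Peaks wider than the median of the list gave 1351 members, 23.98% inside, H3K4me2 on 17.3% of inside and 63.1% of edge peaks, differences of -45.8 and -48.3 points, an inside median gap of 2330.5 bp and an inner minus outer coverage of -4.03 points. Counting H3K4me2 within 500 bp gave 11.6% of inside and 48.6% of edge peaks and -47.2 points against peaks off H3K36me3; requiring 50% of the shorter peak gave 5.77% and 38.4%, and -38.6 points. Peaks of 501 bp alone gave 2236 members, 68.3% inside, H3K4me2 on 5.76% of inside and 15.7% of edge peaks, differences of -9.92 and -28.6 points, an inside median gap of 3261.5 bp and an inner minus outer coverage of -1.72 points. No value moved with autosomes only. No analysis paired over samples was possible because each mark has 1 library. The inner and outer parts of crossing peaks were compared within peaks only. Peak widths at 501 bp limit resolution, and read depth is unknown.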

Other observations

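The share of H3K27ac peaks that touch H3K36me3 varied among chromosomes, from 3.01% on chromosome 18 to 18.8% on chromosome 17, with a median of 12.4%. Inside peaks made up 2 of 10 members on chromosome 18 and 63.9% of members on chromosome 21. No correction was made for the copy number of the cell line.

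An inside peak whose nearest H3K27ac neighbour lay within 5 kb and carried H3K4me2 had H3K4me2 itself in 53 of 434 cases (12.2%, Wilson interval 9.46 to 15.6). With a neighbour lacking H3K4me2 it was 63 of 884 (7.13%, 5.61 to 9.01), and with no neighbour within 5 kb 43 of 711 (6.05%, 4.52 to 8.05). For edge peaks the corresponding shares were 43.0, 38.6 and 47.5%, and off H3K36me3 they were 49.9, 44.2 and 56.1%, highest for peaks with no near neighbour.

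In H3K36me3 peaks of 5 kb or more that an H3K27ac peak crossed at a single end, 96 of 213 inside peaks (45.1%, Wilson interval 38.5 to 51.8) lay nearer the crossed end than the other. Over H3K36me3 peaks of any length it was 113 of 273 (41.4%, 35.7 to 47.3). The crossing peak itself fills part of the crossed end, a median of 365 bp over the 1567 crossing peaks. Few members (44 of 3880) overlap another H3K27ac peak, so less room is left at that end. These shares therefore cannot show whether inside peaks lie away from the crossed end. H3K4me2 lay on 7.36% of 299 inside peaks whose H3K36me3 peak was also touched by an edge peak and on 7.92% of 1730 others.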
